A study of Mus musculus with 12 samples.

Results

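CD47, its receptor SIRPα and the Siglecs restrain phagocytes. Of 27457 gene rows measured in mouse tumors, 5 were chosen by name for their place in this system: Cd47, Sirpa, Cd24a, Siglec1 and Siglece. All 5 were found. MC38 colon carcinoma cells were grown under the skin of female mice aged 8 to 12 weeks, and each tumor was taken 48 h after a single dose of 200 µg of isotype antibody or of aPD1 (an antibody that blocks PD-1). Hosts were C57BL/6J (B6) mice or the first generation of a cross of C57BL/6J with 1 of 7 Collaborative Cross (CC) strains, so every host carried at least a single B6 copy of each autosomal gene. Sorted cells, mostly CD45+ with a smaller part CD45-, were sequenced by 10x 5′ single-cell RNA-seq in 12 libraries (pools), each of 4 specimens told apart by hashtags.

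The study compared hosts by how tumors of the same strain had responded to aPD1 in other animals. Responder strains were C57BL/6J × CC001/UncJ, × CC002/UncJ and × CC075/UncJ, non-responder strains were × CC036/UncJ, × CC079/TauUncJ and × CC080/TauUncJ, and B6 and × CC007/UncJ carried no class here. Strains are written below by their CC number. The files held 93126 cells from 48 tumors. Of these, 10 isotype and 10 aPD1 tumors came from responders (15734 and 22598 cells), 9 and 9 from non-responders (19780 and 17756 cells), and 5 and 5 from strains without a class (10195 and 7063 cells). With 3 strains in each class, the class of a tumor and the genotype of its host cannot be told apart beyond these strains. A tumor gave between 53 and 3082 cells and between 88816 and 17713491 UMIs (unique molecular identifiers, 1 for each captured transcript). Each hashtag was used with 1 treatment only, so hashtag and treatment cannot be told apart. The barcodes of 10176 cells also occurred in another library, and 1 animal identifier stood on 2 tumors (CC080 isotype of pool 3 and CC080 aPD1 of pool 4).

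CD47 sits on nearly all cells and gives a "don't eat me" signal when it binds SIRPα on a phagocyte. The cytoplasmic tyrosine motifs of SIRPα then recruit the phosphatases SHP-1 and SHP-2, which dampen the activating receptors of that phagocyte. Siglecs read sialic acid on neighbouring cells in a comparable way. Siglece encodes an inhibitory Siglec of myeloid cells, and Cd24a encodes heat-stable antigen, the mouse form of a glycoprotein whose human counterpart is a ligand of Siglec-10. Siglec1 (CD169, sialoadhesin) is an adhesion and uptake receptor of macrophages that lacks an inhibitory tyrosine motif and is induced by interferon, so the word brake does not suit it.

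All members are protein-coding genes in the GENCODE vM21 annotation of GRCm38. Cd47 lies on chromosome 16 (49800533 to 49915010, plus strand), Cd24a on chromosome 10 (43578284 to 43584265, plus strand) and Siglece on chromosome 7 (43651070 to 43660161, minus strand). Sirpa (129592835 to 129632228, plus strand) and Siglec1 (131069220 to 131086765, minus strand) both lie on chromosome 2. None overlapped another gene on its own strand. Stretches of 90 exonic bases shared with another gene were absent in Cd47, Sirpa and Siglece, and made up 12 of 2430 such windows in Cd24a (shared with Gm6212) and 16 of 7054 in Siglec1. RefSeq promoter windows of 300 bases (GRCm38.p6) were matched for Cd47 and Siglece. Neither held the interferon element GAAANNGAAA or the GAS element TTCNNNGAA on either strand, against 3.44% and 8.30% of 32851 promoters, which says only that these letters are not in those windows.

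The members divided the cells of the tumor differently. Cells were grouped by the 27 clusters of the authors, which the files number without naming, and clusters were called by markers: 10 were macrophage-like (68059 cells), 9 T/NK-like (12021 cells), and 1 each cDC1-like, cDC2-like, migratory-DC-like, pDC-like, granulocytic and fibroblast-like, with 2 unnamed. Levels are given in CPM (UMIs of the gene per 1000000 UMIs of the summed cells of a tumor), as mean ± SD over tumors with at least 20 such cells. Because genes made the clusters, levels between clusters are described without a test, and they are not corrected for gene length, so they compare cells and not genes. Summed transcripts cannot separate fewer expressing cells from less RNA per cell.

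Cd47, the ligand, was read in every cell class. It was highest in the pDC-like cluster (826 ± 201 CPM, n = 6 tumors) and the migratory-DC-like cluster (575 ± 100, n = 39). T/NK-like cells (342 ± 48.2, n = 47) and cDC1-like cells (350 ± 62.3, n = 27) followed, with macrophage-like cells (239 ± 38.2, n = 48) and fibroblast-like cells (238 ± 62.9, n = 9) lower. Within macrophages the Cd47 level ran from 138 ± 22.4 CPM (cluster 15, n = 5, which carried 6 of 8 macrophage markers but was led by genes such as Ctsk and Acp5, known from osteoclasts) to 404 ± 57.8 (cluster 21, n = 45). For shares of cells, each cell with at least 1000 UMIs was thinned to that number and shallower cells were left out, which kept 63780 of 68059 macrophages, 9216 of 11486 T/NK-like cells without cluster 12, 1281 of 1312 cDC1-like, 1437 of 1524 migratory-DC-like and 431 of 458 pDC-like cells. Cd47 was then found in 51.7% of pDC-like cells (exact 95% interval 46.9 to 56.5), in 45.02% of migratory-DC-like cells, in 28.5% of T/NK-like cells without cluster 12 and in 21.1% of macrophages, and the unthinned shares were 82.8%, 79.9%, 48.2% and 53.4%. Macrophages held 67.1% of all Cd47 UMIs and 72.7% of all UMIs.

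Sirpa, the receptor, marked the myeloid cells. Macrophage-like cells had 345 ± 43.7 CPM (n = 48), the granulocytic cluster 312 ± 135 (n = 7), cDC2-like cells 191 ± 33.6 (n = 44), pDC-like cells 130 ± 38.3 (n = 6) and migratory-DC-like cells 80.2 ± 37.6 (n = 39). The cDC1-like cluster stood apart from the other dendritic cells at 8.55 ± 6.84 CPM (n = 27). T/NK-like cells had 2.44 ± 2.93 CPM without cluster 12, and 92.1% of all Sirpa UMIs lay in macrophages. The unnamed cluster 20 (3411 cells) had 135 ± 161 CPM of Sirpa and 9.87 ± 19.6 CPM of Siglec1 (n = 41), each with a spread over tumors above its mean, and Sirpa was found in 12.6% of its cells thinned to 1000 UMIs (unthinned 25.4%). At 1000 UMIs a cell Sirpa was found in 29.2% of macrophages, in 0.70% of cDC1-like cells and in 0.33% of T/NK-like cells without cluster 12 (unthinned 65.4%, 4.73% and 0.61%, with median depths of 3481, 6575.5 and 1874 UMIs). Cluster 12 (535 cells) carried T/NK markers together with Sirpa at 54.5% of the macrophage level over its pooled cells, and the 8 macrophage markers stood there at 42.2 to 51.5% of theirs. In the other T/NK-like cells Sirpa stood at 0.730% of the macrophage level and those markers at 0.72 to 1.94%. The source of the Sirpa counts in T/NK-like cells was not tested.

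Cd24a was high in the cDC1-like cluster, where Sirpa was low. Its highest means over tumors were in the granulocytic cluster (707 ± 229 CPM, n = 7) and the cDC1-like cluster (523 ± 92.2, n = 27), with cDC2-like cells at 101 ± 32.2 (n = 44), pDC-like cells at 97.7 ± 53.3 (n = 6) and migratory-DC-like cells at 48.0 ± 31.7 (n = 39). The unnamed cluster 25, with 4 immunoglobulin and 3 keratin genes among its 10 leading genes, had 286 ± 112 CPM over 2 tumors. Pooled over all cells the order was cluster 25 (590 CPM), the cDC1-like cluster (534) and the granulocytic cluster (475). Macrophages had 15.4 ± 8.30 CPM (n = 48), from 1.93 ± 1.80 in cluster 15 (n = 5) and 1.95 ± 2.18 in cluster 26 (n = 47) to 56.9 ± 35.3 in cluster 27 (n = 45). The cDC1-like cells gave 35.7% of the Cd24a UMIs and 2.36% of all UMIs, while macrophages gave 33.2% of the Cd24a UMIs. Cd24a in macrophages was 3.02% of its pooled cDC1 level, and the 6 cDC1 markers stood in macrophages at between 0.39% (Xcr1) and 13.4% (Irf8) of theirs.

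The Siglecs were low in counts and myeloid. Siglec1 was at 29.6 ± 12.1 CPM in macrophages (n = 48), which held 96.8% of its UMIs, and at 0.496 ± 1.01 in T/NK-like cells without cluster 12. Among macrophage clusters Siglec1 was highest in cluster 9 (81.6 ± 37.8, n = 20), cluster 21 (57.9 ± 21.7, n = 45) and cluster 26 (46.9 ± 17.1, n = 47) and lowest in cluster 4 (5.66 ± 8.71, n = 44). Cluster 26, whose leading genes include Cxcl13 and the complement genes C1qa, C1qb and C1qc, held 44.9% of all Siglec1 UMIs. Siglece peaked in the granulocytic cluster (182 ± 86.8 CPM, n = 7), followed by cDC2-like cells (44.0 ± 18.5, n = 44), macrophage cluster 17 (43.6 ± 20.4, n = 33) and cluster 26 (38.9 ± 22.3, n = 47), with macrophages as a whole at 26.9 ± 13.9 (n = 48). At 1000 UMIs a cell Siglec1 was found in 3.18% and Siglece in 2.90% of macrophages (unthinned 10.9% and 9.93%). Siglece was found in 19.6% of the 153 of 529 granulocytic cells that held 1000 UMIs or more (exact 95% interval 13.6 to 26.8), and in 16.4% of all of them unthinned, at a median depth of 815 UMIs.

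**Figure D1:**
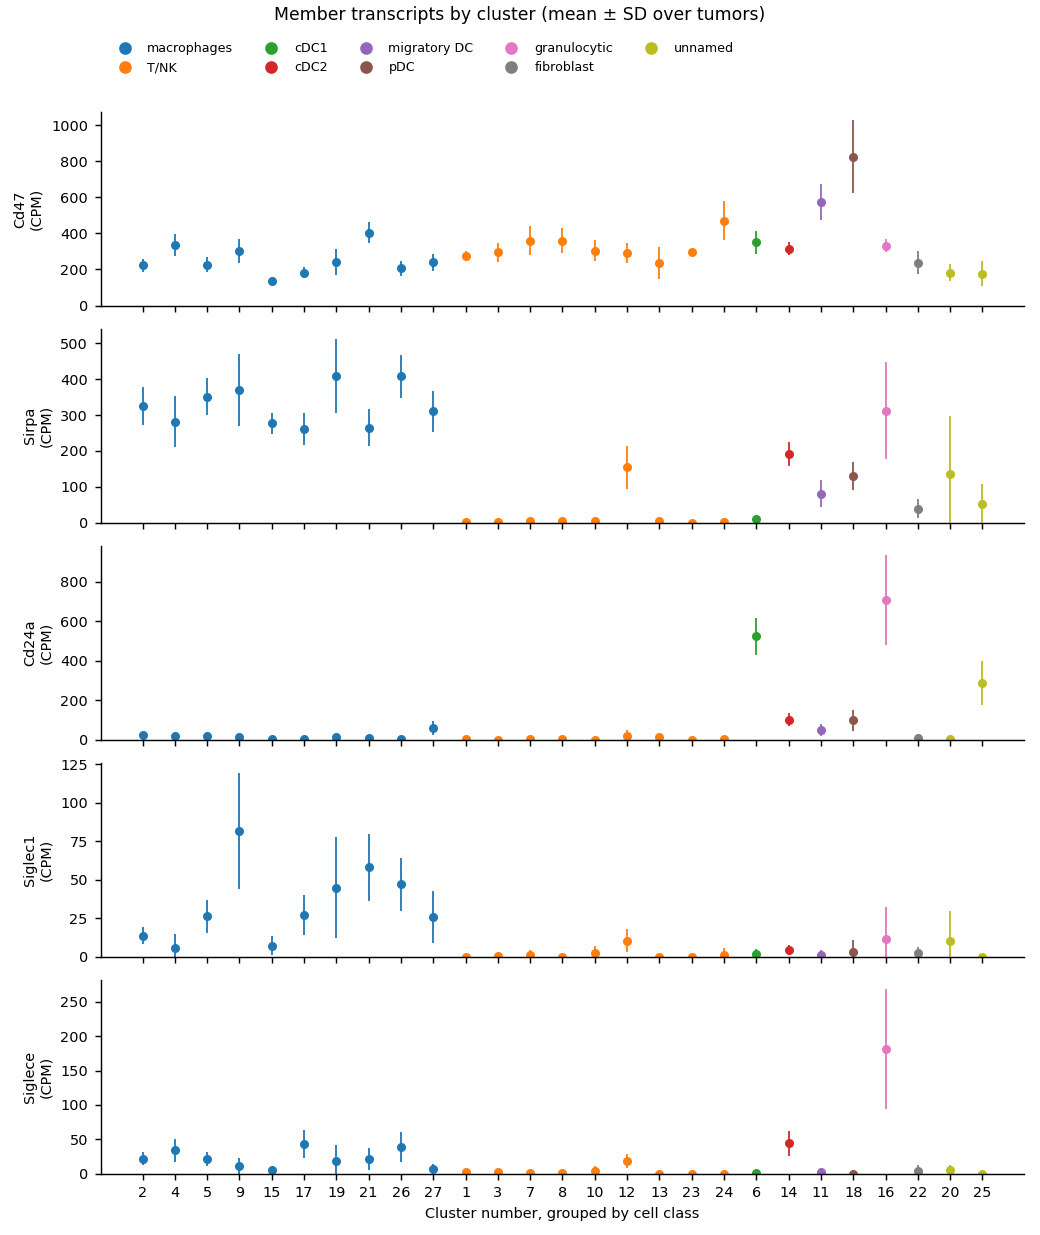
Level of each member in CPM (y axes, each from 0) against cluster number (x axis), with a point at the mean and a bar of 1 SD over tumors with at least 20 cells of the cluster, colored by cell class. Cd47 is present throughout and highest in the pDC-like cluster 18 (826 CPM), Sirpa and Siglec1 have their highest means in macrophage-like clusters (410 CPM in cluster 19 and 81.6 CPM in cluster 9) with lower, widely spread means in the unnamed cluster 20, and Cd24a stands out in clusters 6 and 16 (523 and 707 CPM).

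The 26 clusters with at least 2 tumors were also ordered by level for each member. Sorting sets similar means side by side, so overlap of neighbours is largely built in and says nothing particular about these genes. Clusters far apart in the order did differ, with Sirpa running from 410 CPM (cluster 19) to 1.00 (cluster 3). The mean ± SD ranges of neighbouring clusters overlapped in 25 of 25 neighbour pairs for Cd47, Sirpa and Siglec1, in 24 of 25 for Siglece and in 23 of 25 for Cd24a. As a description over 27 clusters and 13051 genes, with library and depth shared, the genes most like Sirpa were Csf1r, Fcgr2b and Clec4a2 (Pearson's r = 0.98, 0.97 and 0.97), and those most like Siglec1 were Apoe, Ms4a7 and C1qc (0.94 each). For Siglece they were Ccr1, Trem1 and Tlr2 (0.91, 0.90 and 0.89), for Cd24a Mapk13, Gm10552 and Ryr1 (0.89, 0.80 and 0.78) and for Cd47 Selplg, Mob3a and Lsp1 (0.76, 0.76 and 0.74).

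The question of whether these genes differ between responder and non-responder hosts was asked first in macrophages, with edgeR's quasi-likelihood test on counts summed per tumor and treatment as a covariate. None of the 5 members passed an adjusted p of 0.05 there, while 745 of 11646 genes did (6.4%). That background counts tumors of a strain as separate replicates: with counts summed per strain 3 of 14571 genes passed in macrophages, 3 of 11424 in T/NK-like cells and 2 of 16791 in all cells. The ranges of both classes overlapped for every member. They also did for a called gene described below, Mag (3.78 to 9.93 CPM in responders against 2.29 to 6.72). The share of all genes with such overlap was not counted. DESeq2 called none of the members either, beside 1087 of 24997 genes. At an unadjusted p under 0.05 by edgeR there were 0 of 5, beside 20% of all genes.

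Cd47 in macrophages ranged from 186 to 310 CPM in the 20 responder tumors (median 230) and from 170 to 296 in the 18 non-responder tumors (median 230). The fitted difference was 0.09 ± 0.07 (log2, SE; adjusted p = 0.556), and it turned to -0.08 in pools 1 to 5 alone and to -0.03 without CC036. Sirpa, the receptor facing it, ranged from 278 to 452 CPM (median 343) in responders and from 260 to 380 CPM (median 347) in non-responders, a difference of 0.07 ± 0.06 (adjusted p = 0.562) that turned to -0.05 in pools 1 to 5 alone. Of the responder tumors 4 lay above all non-responder tumors for Sirpa and 1 for Cd47. Pools 1 to 5 held no tumor of CC036 or CC075, and pools 8 to 12 none of CC079. Taking these pools alone therefore also changes which strains are compared.

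The sialic acid side was more variable. Cd24a ranged from 4.51 to 32.3 CPM (median 11.8) in responders and from 8.27 to 39.3 (median 16.0) in non-responders, a log2 difference of -0.40 ± 0.23 (adjusted p = 0.341). Of 6 cDC1 markers 5 were tested in these macrophages and 2 were higher in responders, with a median log2 difference of 0.33, and their part in the Cd24a value was not tested. Siglec1 ran from 11.9 to 49.3 CPM (median 28.0) against 17.8 to 58.8 (median 34.8), a log2 difference of -0.22 ± 0.16 (adjusted p = 0.481) that turned to 0.25 in pools 8 to 12 alone. Siglece, the inhibitory Siglec, ran from 7.77 to 59.3 CPM (median 29.9) against 13.01 to 47.6 (median 22.9), a log2 difference of 0.35 ± 0.22 (adjusted p = 0.387). For Siglece 3 responder tumors lay above and 3 below all non-responder tumors. Its responder strains were themselves apart, and without CC075 the Siglece difference was 0.67 with an adjusted p of 0.0143. Without CC002 it was 0.03 (adjusted p = 0.970), so leaving out single strains moved it through the whole range seen under the alternatives.

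In T/NK-like cells 153 of 6908 genes passed by edgeR (2.21%) and 331 of 20912 by DESeq2, and no member did by either. None had an unadjusted p under 0.05 either, beside 14.7% of all genes. Cd47 ran from 234 to 414 CPM (median 326) in responders and from 300 to 458 (median 369) in non-responders, and 7 of 20 responder tumors lay below all 18 non-responder tumors. Within the isotype tumors 7 of 10 responders lay below all 9 non-responders, and within the aPD1 tumors 1 of 10 did, but the classes were not tested within treatments in these cells. The fit gave -0.09 ± 0.07 (log2, SE; adjusted p = 0.613). Sirpa there rested on cluster 12 and the rest of the members fell below the filter on low counts. Over all cells of a tumor 407 of 13163 genes passed by edgeR (3.09%) and 659 of 26686 by DESeq2, again with no member among them. No member had an unadjusted p under 0.05 there, beside 13.9% of all genes.

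The classes were then compared within each treatment in macrophages. In isotype tumors 22 of 11255 genes passed by edgeR (0.195%) and 64 of 23542 by DESeq2, none of them a member. No member had an unadjusted p under 0.05, beside 5.78% of all genes. Cd47 lay between 186 and 259 CPM (median 213) in 10 responder tumors and between 182 and 296 (median 241) in 9 non-responder tumors. In aPD1 tumors 720 of 11363 genes passed by edgeR (6.34%) and 1141 of 23675 by DESeq2, again none of them a member. Cd47 and Cd24a had an unadjusted p under 0.05, as did 22.1% of all genes.

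In aPD1 tumors the Cd47 values of responders lay mostly toward the upper end. They were between 207 and 310 CPM (median 258) in 10 responder tumors and between 170 and 259 (median 222) in 9 non-responder tumors. Of the responder tumors 5 lay above all non-responder tumors, and 3 non-responder tumors lay below all responder tumors. Those 3 were all from CC036 (190.1, 187 and 170 CPM), while the 6 CC079 and CC080 tumors lay between 209.6 and 259 CPM, inside the responder range. The log2 difference was 0.28 ± 0.10 (SE) with an adjusted p of 0.0919 by edgeR, 0.0693 by DESeq2 and 0.193 with pools as blocks, so it did not pass. It was 0.10 in pools 1 to 5 alone (adjusted p = 0.751), which lack CC036 and CC075, and 0.51 in pools 8 to 12 alone (0.0795), which lack CC079. Cd24a in the same tumors had a log2 difference of -0.62 ± 0.28 (adjusted p = 0.192), Sirpa of 0.16 ± 0.09 (0.321), Siglec1 of -0.35 ± 0.21 (0.350, turning to 0.21 in pools 8 to 12 alone) and Siglece of 0.36 ± 0.32 (0.557).

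**Figure D2:**
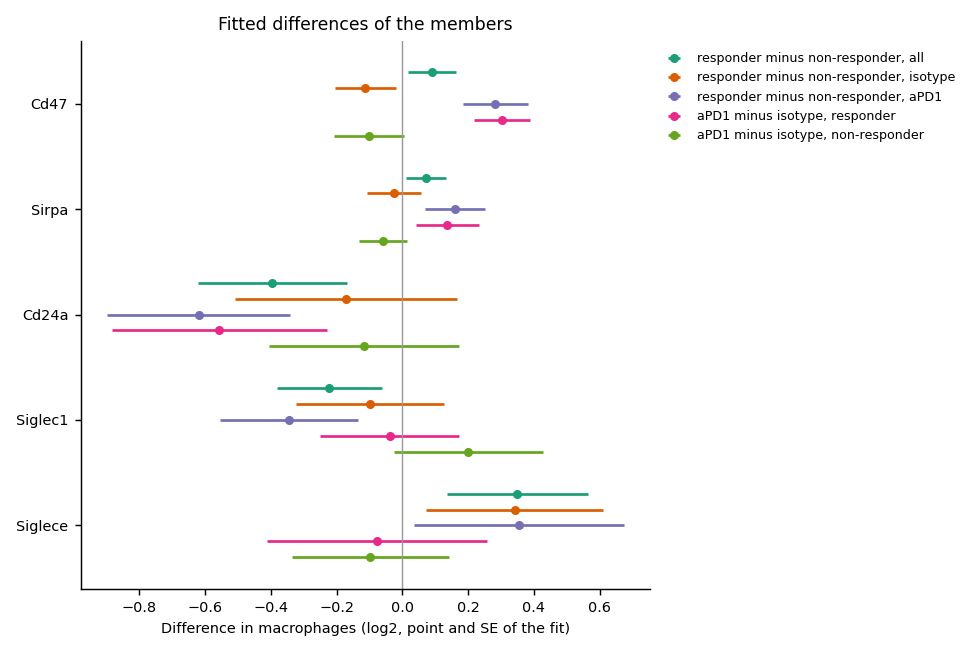
Fitted log2 difference of each member in macrophages (x axis) with the SE of the fit as bars, for the class comparison over all tumors and within each treatment and for aPD1 minus isotype within each class. Cd47 lies at 0.28 between the classes after aPD1 and at 0.30 for aPD1 minus isotype in responders, and no point passed an adjusted p of 0.05.

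The effect of a single dose of aPD1 after 48 h was asked within each class. In responder macrophages 0 of 11203 genes passed (0%), with 756 at an unadjusted p under 0.05 and 1 called by DESeq2. In non-responder macrophages 0 of 11408 passed (0%), with 77 at an unadjusted p under 0.05 and 0 by DESeq2. Cd47 was the only member with an unadjusted p under 0.05 in either.

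In responder strains Cd47 lay between 186 and 259 CPM (median 213) in isotype tumors and between 207 and 310 (median 258) in aPD1 tumors. It was higher with aPD1 in 8 of 10 pairs of tumors that shared strain and pool. By strain the 3 CC075 pairs went from 211 to 268, from 235 to 281 and from 216 to 276 CPM, and the 4 CC001 pairs went from 218 to 207, from 227 to 310.0, from 186 to 241 and from 195 to 277. The CC002 pairs went from 194 to 234, from 209 to 215 and from 259 to 248. The difference in Cd47 was 0.30 ± 0.09 (log2, SE; adjusted p = 0.696), and its adjusted p was 0.491 by DESeq2 and 0.137 with the pairs as blocks. In non-responder strains Cd47 was higher with aPD1 in 4 of 9 pairs and differed by -0.10 ± 0.11 (adjusted p = 1.00).

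Whether the aPD1 effect on macrophages differed between the classes was tested as an interaction. Of 11873 genes 0 passed (0%), with 1 by DESeq2. At an unadjusted p under 0.05 there were 680 (5.73%), and Cd47 was the only member among them (0.00439 by edgeR). The interaction of Cd47 was 0.41 ± 0.14 (log2, SE; adjusted p = 0.868, or 0.267 with the pairs as blocks). That of Sirpa was 0.20 ± 0.12 (adjusted p = 0.868). Sirpa was higher with aPD1 in 7 of 10 responder pairs and 3 of 9 non-responder pairs.

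Cd47 on T/NK-like cells showed the same counts of pairs. It was higher with aPD1 in 8 of 10 responder pairs (0.21 ± 0.09 on the log2 scale, SE; adjusted p = 0.999) and in 4 of 9 non-responder pairs (-0.01 ± 0.12, adjusted p = 0.999). Responder isotype tumors ran from 234 to 403 CPM (median 295) and responder aPD1 tumors from 288 to 414 (median 347), which overlapped. Of 6908 genes in responder T/NK-like cells 0 passed (0%), with 270 at an unadjusted p under 0.05 and 0 by DESeq2. Of 5906 in non-responders 0 passed (0%), with 160 and 1. Cd47 was among the 270 in responders (unadjusted p = 0.0359 by edgeR), which were 3.91% of the genes tested there. With the pairs as blocks 5 genes passed in responder and 19 in non-responder T/NK-like cells, and 3 and 0 in macrophages, none of them a member.

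**Figure D3:**
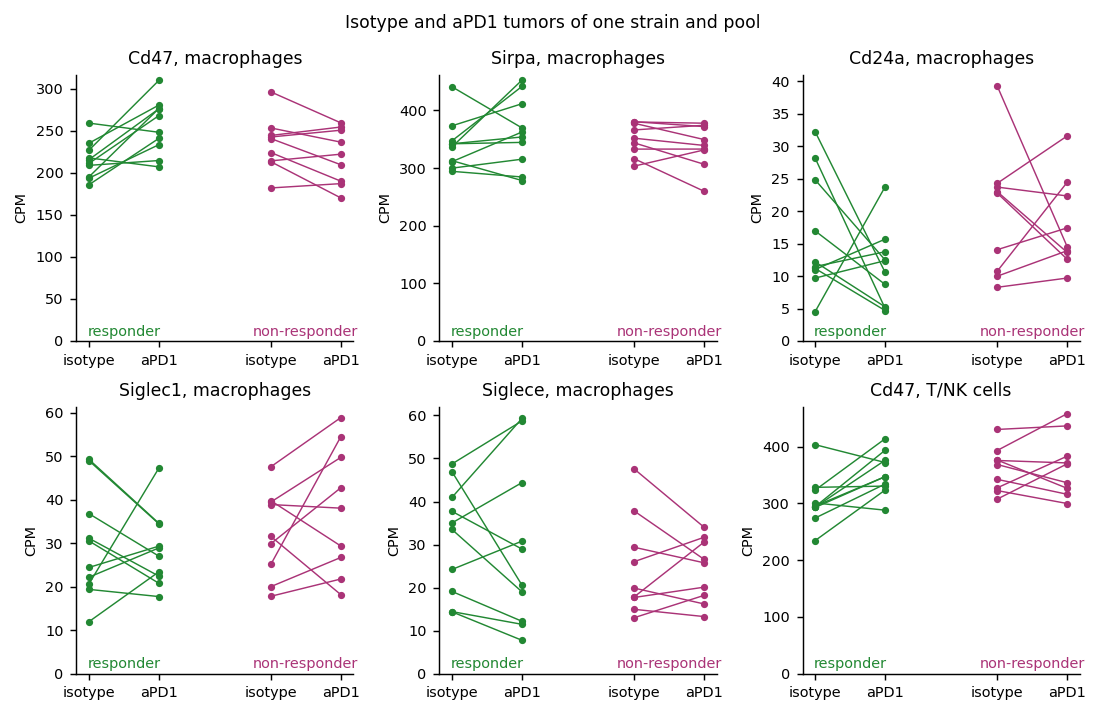
Levels in CPM (y axes, from 0) in isotype and aPD1 tumors (x axes), with a line joining the tumors of one strain and pool, for the 5 members in macrophages and Cd47 in T/NK-like cells, with responder strains in green and non-responder strains in purple. Cd47 is higher with aPD1 on 8 of 10 responder lines and 4 of 9 non-responder lines in both cell classes, with wide overlap between treatments.

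Host strain was compared next. An F test over the 8 strains in macrophages of 48 tumors called 6464 of 12510 genes (51.7%), and 3 of 5 members were called, Siglece, Siglec1 and Cd47, a share near that background. With pools as blocks, where strains are compared inside the 2-strain pools, 1671 of 13010 genes passed and none of those 3 members did. The range of the fitted strain levels over all genes had a median of 0.57 (log2).

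Siglece had the widest span of the 5 members over all 48 tumors without blocks (Cd24a was wider with pools as blocks and in pools 1 to 5 alone). Its strain levels spanned 1.86 on the log2 scale (adjusted p = 9.28e-06, or 0.425 with pools as blocks). The CC002 tumors ran from 24.2 to 59.3 CPM (median 44.8) and the CC001 tumors from 19.0 to 46.9 (median 34.3), while the CC075 tumors ran from 7.77 to 19.1 (median 13.3) and the CC036 tumors from 13.01 to 19.9 (median 15.6). No CC075 or CC036 tumor reached the lowest CC002 tumor, and CC002 had 3.31 times the mean of CC075. These extremes, CC002 and CC075, were both responder strains. Within pools 8 to 12 the Siglece test gave an adjusted p of 0.00374 and within pools 1 to 5 of 0.0370. In pools 8 to 12 CC001 and CC002 lay only in pool 12, which held no CC075 or CC036 tumor. Strain and library therefore cannot be told apart for these strains there, and pools 1 to 5 held neither CC075 nor CC036.

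Siglece of CC075 was also low inside single macrophage clusters, and that of CC036 inside cluster 26. These strains shared libraries: CC075 lay in pools 9, 10 and 11 and CC036 in pools 8, 9 and 10, whereas CC002 lay in pools 3, 5 and 12, CC001 in pools 1, 2, 4 and 12, CC079 in pools 1, 2 and 5 and CC080 in pools 3, 4 and 11. In cluster 26 CC075 had 17.9 ± 8.43 CPM and CC036 17.9 ± 9.80, against 60.5 ± 20.7 in CC002 and 46.6 ± 12.3 in CC001 (n = 6, 6, 6 and 8). In cluster 2 CC075 had 11.7 ± 2.82 CPM and CC002 33.9 ± 8.21. In cluster 5 CC075 was again lowest (13.8 CPM), but the highest strain was CC079 (28.8), at 2.08 times the CC075 mean. The share of cluster 26 among macrophages was 23.1% in CC075, 17.4% in CC036 and 28.8% in CC002.

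Siglec1 spanned 0.96 on the log2 scale (adjusted p = 0.000210, or 0.0863 with pools as blocks). It was highest in the non-responder strains CC079 (29.3 to 58.8 CPM, median 39.3) and CC080 (25.1 to 54.5, median 41.1) and lower in CC002 (11.9 to 28.9, median 20.8), so that each CC079 tumor lay above each CC002 tumor. The responder strain CC001 ran from 20.8 to 49.3 CPM (median 34.5) and overlapped both CC079 and CC080. The third non-responder strain, CC036, lay between 17.8 and 31.5 (median 20.9). Within pools 8 to 12 the Siglec1 test gave an adjusted p of 0.0401 and within pools 1 to 5 of 0.0535. In pools 8 to 12 CC080 lay only in pool 11, apart from the CC002 and CC036 tumors.

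Cd47 spanned 0.51 on the log2 scale (adjusted p = 0.00568, or 0.132 with pools as blocks). CC036 had the lowest level, from 170 to 224 CPM (median 189), and overlapped other strains. Strain means of the others ran from 226 ± 25.0 (CC002) to 284 ± 57.2 (CC007, n = 4), and the highest CC007 tumor, at 365 CPM, was the tumor with 53 cells. CC036 was also the lowest strain for Cd47 in clusters 2, 5, 21 and 26 (178 ± 19.2, 176 ± 19.6, 331 ± 27.6 and 164 ± 29.6 CPM). Within pools 8 to 12 and pools 1 to 5 the adjusted p was 0.137 and 0.449.

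Sirpa and Cd24a did not pass the test across strains, though each did under some alternatives. Sirpa, with strain means from 307 ± 26.02 CPM (CC001) to 394 ± 48.8 (CC075), spanned 0.33 (adjusted p = 0.0529) and passed with pools as blocks (0.0269), by DESeq2 (0.0313) and in the 6 classed strains alone (0.0177). Cd24a spanned 1.21 (adjusted p = 0.118), passed in pools 1 to 5 alone (0.0188) and spanned 2.61 with pools as blocks (0.290). In T/NK-like cells of 47 tumors 2138 of 8458 genes passed (25.3%). Sirpa passed there (adjusted p = 0.0187) but was not past the threshold with pools as blocks (0.213) and fell below the filter without cluster 12, and Cd47 did not pass (adjusted p = 0.397). Reads of these first-generation hosts were aligned to the B6 genome, and the part of sequence differences between strains in these levels was not tested.

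**Figure D4:**
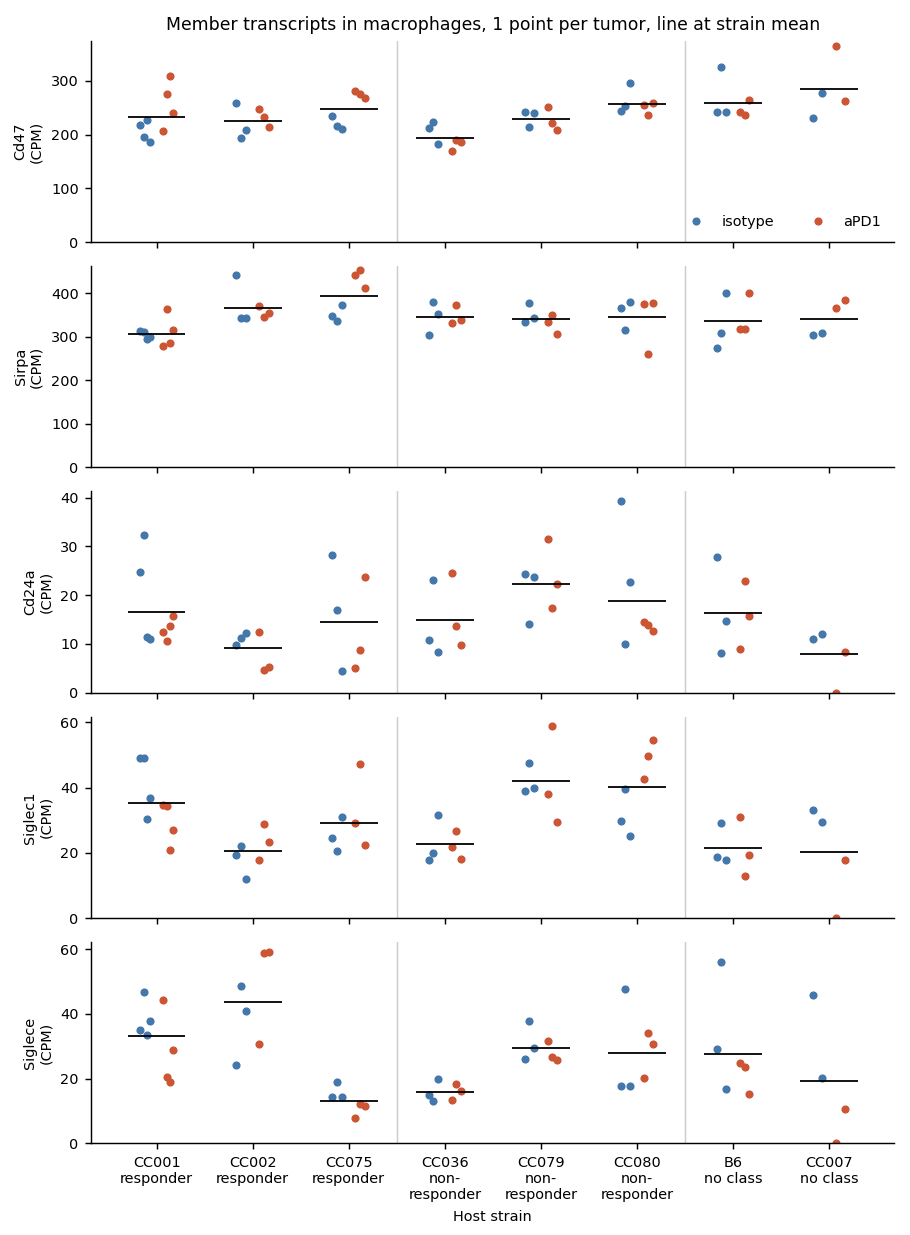
Level of each member in macrophages in CPM (y axes, from 0) by host strain (x axis), with 1 point per tumor, colored by treatment, and a line at the strain mean. Siglece points of CC075 and CC036 all lie under 20 CPM while CC002 points lie between 24.2 and 59.3, and Siglec1 is highest in CC079 and CC080.

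**Figure D5:**
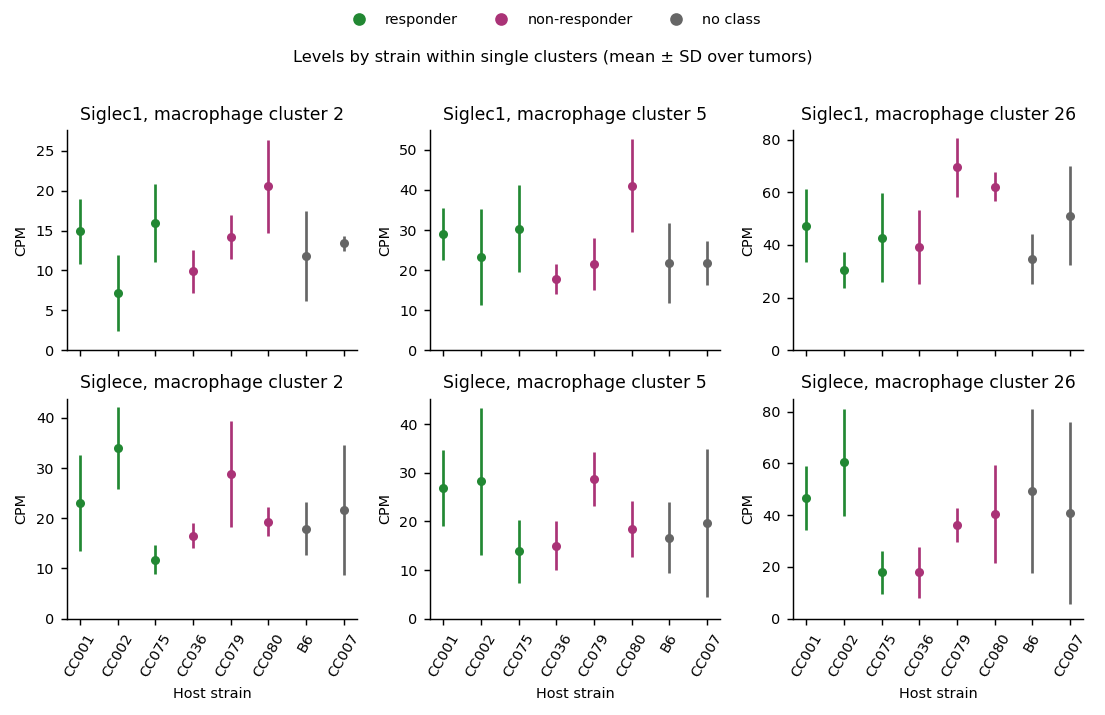
Levels of Siglec1 (top) and Siglece (bottom) in CPM (y axes, from 0) by host strain (x axes) inside macrophage clusters 2, 5 and 26, with points at the mean and bars of 1 SD over tumors, colored by class. Siglece of CC075 is lowest in clusters 2 and 5 and level with CC036 in cluster 26 (17.9 CPM each), and Siglec1 of CC079 reaches 69.5 CPM in cluster 26.

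The class comparison was repeated inside 17 clusters, giving 48 pairs of a member and a cluster. None passed by edgeR, while 1822 of 84193 pairs of a gene and a cluster did (2.16%). At an unadjusted p under 0.05 there were 6 of 48, beside 12.2% of all pairs, which is near that background. DESeq2 was not run on single clusters. The pair nearest to the threshold was Siglec1 in cluster 26, the cluster with the largest share of its transcripts.

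In cluster 26 Siglec1 ran from 22.2 to 75.8 CPM (median 38.4) in 20 responder tumors and from 18.6 to 85.6 (median 62.8) in 18 non-responder tumors, which overlapped widely. The log2 difference was -0.42 ± 0.14 (SE) with an adjusted p of 0.0510. It passed with libraries scaled by size alone (-0.50, 0.0161), with at least 50 cells of the cluster per tumor (-0.44, 0.0399) and with pools as blocks (-0.52, 0.00767). Of all genes in cluster 26, 747 of 9673 passed in the main fit. In those settings, in the same order, 1039 of 9673, 783 of 9820 and 958 of 10975 did. The strain means of Siglec1 were 69.5 ± 11.2 in CC079 and 62.2 ± 5.60 in CC080, against 39.2 ± 13.96 in CC036, the third non-responder strain. The responder strains CC001, CC075 and CC002 had 47.3 ± 13.9, 42.7 ± 16.9 and 30.5 ± 6.98. CC036 thus lay within the range of the responder strains. In cluster 27 Siglec1 had a median of 21.6 CPM in 19 responder tumors and of 30.4 in 18 non-responder tumors, a log2 difference of -0.67 ± 0.22 (adjusted p = 0.177). Cd24a in cluster 26 fell below the filter on low counts in the main fit and was not among its 48 pairs. It had 134 UMIs over the 17007 cells of this cluster. With pools as blocks, where 55 pairs were tested, it passed (-1.32 ± 0.40, adjusted p = 0.0316). Its median was 0.647 CPM in responders and 2.56 in non-responders.

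Lists of genes around the members were also compared between the classes in macrophages, where 6.4% of all genes passed. Of 11 partners of SIRPα and CD47, 1 was higher in responders, and the median log2 difference of the list was 0.07 beside -0.01 over all genes. It was Sirpb1a, an activating relative of SIRPα, at 62.1 CPM (median) against 56.7 (0.27 ± 0.08, adjusted p = 0.0446). This call ended with pools as blocks (adjusted p = 0.0964) and when pool 1, 2, 8, 9, 10, 11 or 12, or CC002, CC036, CC075 or CC079, was left out, with counts summed per strain (0.962), in pools 1 to 5 alone (0.04, adjusted p = 0.912), with libraries scaled by size alone (0.0916), without the filter on low counts (0.0770) and without tumors of under 500 cells (0.0569). Of the 90-base windows of its relative Sirpb1b, 92 of 2963 also occur in Sirpb1a. Of those of Sirpb1c, 1327 of 3950 occur in Sirpb1a or Sirpb1b, so the counts of Sirpb1a are uncertain. Ptpn6, which encodes SHP-1, had a log2 difference of 0.17 ± 0.05 in macrophages (adjusted p = 0.0540). Ptpn11, which encodes SHP-2, had -0.08 ± 0.05 (0.397), so neither passed.

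The other Siglecs were sparse. Of 7 listed, 3 were measured well enough and 2 were higher in responders. Mag, a Siglec best known from myelin, had a median of 6.24 CPM against 4.05 (0.57 ± 0.13, adjusted p = 0.00473), and 7 responder tumors lay above all non-responder tumors. Cd22, the inhibitory Siglec of B cells, had 2.70 against 1.40 CPM (1.08 ± 0.28, adjusted p = 0.0132) from 361 and 188 UMIs in all, and its call ended without pool 11, without CC075 (adjusted p = 0.183), CC079 (0.0564) or CC080 (0.0793), in pools 1 to 5 alone (0.455) and with counts summed per strain (0.879). Of 6 B cell markers 2 were measured in these macrophages and none was called, and their part in the Cd22 result was not tested. Siglecg, the mouse counterpart of human Siglec-10, was measured well enough only over all cells (-0.17 ± 0.25, adjusted p = 0.867). Mag and Cd22 are close neighbours on the minus strand of chromosome 7.

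Of 16 sialic acid genes 14 were tested and 1 was called. St3gal5, the GM3 synthase that adds sialic acid to glycolipids, had a median of 18.0 CPM in responders and 13.01 in non-responders (0.60 ± 0.14, adjusted p = 0.00641), and 5 responder tumors lay above all non-responder tumors. The calls of Mag and St3gal5 held when any 1 pool or any 1 strain was left out. They ended in pools 1 to 5 alone, which lack CC036 and CC075, and with counts summed per strain.

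Other inhibitory receptors of myeloid cells moved in both directions, 2 up and 2 down of 11 in responders. Clec12a, which senses uric acid crystals, had a median of 216 against 187 CPM (0.35 ± 0.10, adjusted p = 0.0271), and the collagen receptor Lair1 253 against 216 (0.29 ± 0.09, adjusted p = 0.0473). Ceacam1, a homophilic inhibitory receptor, had 8.22 against 12.0 CPM (-0.52 ± 0.14, adjusted p = 0.0183), and Lilrb4a 404 against 487 (-0.29 ± 0.09, adjusted p = 0.0394). Leaving out 1 pool ended the call of Clec12a for pools 4, 5, 8, 9 and 11, of Lair1 for pools 1, 2, 4, 5, 8, 9, 10 and 12, of Lilrb4a for pools 1, 8, 9, 10, 11 and 12 and of Ceacam1 for pools 1 and 5. Leaving out 1 strain ended the call of Clec12a for CC001, CC002, CC036 and CC080, of Lair1 for CC001, CC002, CC036 and CC079, of Lilrb4a for CC002, CC036 and CC075 and of Ceacam1 for CC001, CC002 and CC079. Summing counts per strain ended all 4 calls (adjusted p from 0.879 to 1.00), as did pools 8 to 12 alone for Clec12a, Lair1 and Ceacam1 and pools 1 to 5 alone for Lair1 and Lilrb4a. Scaling by size alone ended the calls of Clec12a (0.0551) and Lair1 (0.0931), dropping the filter on low counts those of Clec12a (0.0557), Lair1 (0.0871) and Lilrb4a (0.0627), and leaving out tumors of under 500 cells that of Lilrb4a (0.0598). Lilrb4a and Ceacam1 share 36.3% and 22.0% of their 90-base windows with close relatives, so their counts are uncertain.

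In T/NK-like cells, where 2.21% of genes passed, 1 of 6 tested SIRPα and CD47 partners was called. It was Ptpn6, at a median of 146 CPM (67.3 to 238) in responders and 100.3 (61.9 to 163) in non-responders (0.58 ± 0.14, adjusted p = 0.0168), with 7 responder tumors above all non-responder tumors. The call ended without pool 1, 2 or 5, without CC001 (adjusted p = 0.317), CC002 (0.0849), CC036 (0.110) or CC079 (0.0854), in pools 8 to 12 alone (0.290) and with counts summed per strain (1.00). Of 8 T/NK markers 4 were higher and 1 lower in responders in the same cells, and their part in the Ptpn6 result was not tested. None of the 10 sialic acid genes and 5 other inhibitory receptors tested there passed.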

How the data were processed

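The authors deposited a gene by cell table of raw UMI counts with the library, hashtag, strain, treatment and cluster of each cell, and these counts were used as deposited. Per the labels they used Cell Ranger, the genome GRCm38 (mm10) and Seurat 5.0.1, and per their methods cells with high mitochondrial or ribosomal shares were removed. Cluster numbers are the authors', and names come from markers. Doublet removal is not given in the sources used here, and no doublet caller was run. Counts were summed per tumor over clusters of 1 class, tumors with under 20 such cells were left out, and genes were filtered by filterByExpr. The test was edgeR 4.0.16 (R 4.3.3, TMM, glmQLFTest, Benjamini-Hochberg over all genes tested, two-sided, threshold 0.05), with DESeq2 1.42.0 as an alternative, and was tested on simulated data. A strain difference is the highest minus the lowest fitted strain. Levels are CPM, and cells were thinned to 1000 UMIs for shares, with exact intervals that cover counting error only. Response class came from the study's text and strain and treatment from the cells' labels. The isotype and aPD1 tumor of one strain and pool share a library as well as a strain. In 19 such pairs their deviations from the means of their class and treatment had a median correlation of 0.428 (-0.117 to 0.742, 18 over 0.1). For tumors of different classes in the same pool the median was 0.2275. The library was used as a block in an alternative. All members were named, and partner genes were named where they passed in the class comparison. The members and lists were chosen with earlier results of these data known. Promoters were read from RefSeq, and the exonic windows shared between genes from the GENCODE vM21 transcripts.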

Additional observations from a re-analysis of the deposited data

Results flagged for a closer look

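Within single strains, and within each class and treatment, the highest or lowest tumor of each member in macrophages was compared with the rest by Dixon's test (60 tests, and chance marks about 1 in 20 groups). All tumors marked were marked within single strains. A B6 isotype tumor of pool 7 (261 cells) stood apart for Cd47, at 326 CPM against 265 in the next tumor, and for Siglece, at 56.2 against 29.1. Sirpa stood apart in a CC001 aPD1 tumor of pool 12, at 362 CPM against 315, and in a CC002 isotype tumor of pool 12 (125 cells), at 441 against 370. The causes were not tested.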

How the results depend on the processing

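Depth limits the Siglecs and Cd24a in macrophages, which were found in few cells. The count of members called in the class comparison of macrophages (0) became 1, Siglece, without CC075 (beside 784 of 11680 genes). Across strains the macrophage count (3, beside 6464 of 12510 genes) was 1 with pools as replicate block (1671 of 13010). It was 4 by DESeq2 (7419 of 25288) and in the 6 classed strains alone (6495 of 12157). It was 2 in pools 8 to 12 alone (709 of 12658) and in pools 1 to 5 alone (1347 of 11906). The T/NK count (1, beside 2138 of 8458 genes) was 2 by DESeq2 (2870 of 21438) and without the filter on low counts (2978 of 21446). It was 0 in pools 8 to 12 alone (413 of 8158) and in pools 1 to 5 alone (436 of 7512). With pools as replicate block (631 of 8920) and without cluster 12 (2009 of 8144) it was also 0. Inside clusters the count (0 of 48 pairs) was 1 of 48 with libraries scaled by size alone and 1 of 39 with at least 50 cells. It was 2 of 55 with pools as replicate block (Siglec1 and Cd24a in cluster 26). All of these calls lay in cluster 26. There 1039 of 9673, 783 of 9820 and 958 of 10975 genes passed in these settings, in the same order. Every value that changed direction was short of the threshold.

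In pools 1 to 5 alone, which lack CC036 and CC075, the class differences (log2) of Cd47 and Sirpa turned to -0.0759 and -0.0498 in macrophages and -0.0703 and -0.11 in all cells. In pools 8 to 12 alone, which lack CC079, Siglec1 turned to 0.25 in macrophages, 0.29 in all cells, 0.29 in isotype and 0.21 in aPD1 tumors. In isotype tumors of pools 8 to 12 Cd47, Sirpa and Cd24a turned to 0.0667, 0.0703 and 0.0226. Without CC036 Cd47 in macrophages turned to -0.0258 and Siglece in all cells to -0.0297, without CC002 Siglece in all cells to -0.0655, without CC075 Sirpa in all cells to -0.0624 and without CC079 Sirpa in T/NK-like cells to 0.13. With pools as replicate block Sirpa and Siglece in all cells turned to -0.0060 and -0.0256, and without single pools Sirpa ran from -0.0232 (without pool 10) to 0.0906.

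For aPD1 in responders Siglec1 turned to 0.0358 with the pairs as replicate block, 0.0479 with strain as a term and 0.39 without CC001, and Siglece to 0.19 without CC001. In non-responders without CC080 Cd24a turned to 0.26 and Siglec1 to -0.0180, and Cd47 in T/NK-like cells to 0.0170 by size alone and 0.0033 without CC079. The interaction of Siglec1 turned to 0.20 without CC001 and that of Siglece to -0.0170 by DESeq2, -0.0169 by size alone, -0.19 with the replicate block and -0.32 without CC002. The causes were not tested.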
